A study of Mus musculus with 36 samples.

Results

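The later hours of the daily hypoxic window, from ZT4 to ZT8, were examined in the liver of mice under chronic intermittent hypoxia (IH). All 3 libraries labelled IH at ZT8 were compared with all 3 labelled IH at ZT4, which makes 6 of the 36 liver libraries of the series. The mice were male wild-type C57BL/6JRj animals, 16 weeks old, under 12 h of light and 12 h of dark with free access to chow and water, and ZT0 is lights on. IH mice breathed air that cycled 60 times per hour between 21% and 5% inspired oxygen from ZT0 to ZT8 every day for 4 weeks, and control mice went through matched cycles of air alone. ZT4 therefore lies within the exposure and ZT8 at its end. Each library is poly(A)-selected liver RNA, sequenced in read pairs and deposited as FPKM (fragments per kilobase of transcript, scaled to the mapped total of the library). Differences are given on the log2(FPKM + 1) scale as ZT8 minus ZT4, with a standard error (SE) from limma, and a gene was called where the Benjamini-Hochberg adjusted P was under 0.05. Of 24066 symbols listed on 1 row, the 13215 that averaged 0.1 FPKM or more across all 36 libraries were tested.

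The mammalian clock is a feedback loop. BMAL1 (encoded by Arntl) and CLOCK bind E-boxes and drive the Per, Cry, Nr1d (REV-ERB) and Ror genes, whose products act back on the loop, and the PAR bZIP factors DBP, TEF and HLF carry the rhythm to D-boxes of output genes. In liver, outputs of the loop include xenobiotic metabolism, bile acid synthesis and the storage and release of glycogen. Low oxygen acts mainly through HIF, a factor whose alpha subunits are degraded after hydroxylation by the EGLN enzymes, and whose targets include glycolytic enzymes, Vegfa and Bnip3. Male mouse liver sampled late in the light phase is also moving from rest and fasting toward feeding, so a step from ZT4 to ZT8 includes the normal passage of the day. For that reason the same step in control liver is given for several lists and many of the genes described, and the plots show it for others.

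The sequences that precede the starts of the clock genes are shown first, because this group held the largest share of called genes. Sequences are from RefSeq, assembly GRCm38.p6, and the 250 bases before each RefSeq start were searched on both strands. Each stretch is printed on the strand of the gene, and where an annotated exon of the gene begins within the window the print stops there, which leaves out 23 bases next to the start of Ciart, 138 next to that of Bhlhe41 and 1 next to that of Per1. Positions are counted from the RefSeq start, not from the end of the print. The motifs marked were the E-box (CACGTG), the D-box (TTATGTAA or TTACATAA), the ROR element (TAGGTCA), the CRE (TGACGTCA) and a heat shock element (GAANNTTC). Hypoxia response cores (ACGTG and GCGTG), a sterol response element (TCACNCCAC) and 1 side of the CRE (TGACG) were also searched and are not shown. Of the 14 clock genes called, 12 had an entry, and 4 of these 12 held an E-box. Since a gene can have several windows, the count to set beside the 6.02% of all 32851 windows that hold an E-box is 5 of 17 windows. A D-box, present in 0.819% of windows, was found before 1 gene, Per3, and a ROR element, present in 2.23% of windows, before 1 gene, Nfil3, where it begins 12 bases before the start and is not printed. The capitals mark the motifs.
Ciart, chr3:95882252-95882478, minus strand, with 3 E-boxes that begin 116, 58 and 44 bases before the start: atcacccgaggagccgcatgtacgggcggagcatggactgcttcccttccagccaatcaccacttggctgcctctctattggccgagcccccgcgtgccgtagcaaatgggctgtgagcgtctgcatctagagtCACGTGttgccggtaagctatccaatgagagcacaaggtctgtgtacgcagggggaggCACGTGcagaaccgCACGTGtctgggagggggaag
Per3, chr4:151044666-151044915, minus strand, with 2 D-boxes that begin 205 and 158 bases before the start: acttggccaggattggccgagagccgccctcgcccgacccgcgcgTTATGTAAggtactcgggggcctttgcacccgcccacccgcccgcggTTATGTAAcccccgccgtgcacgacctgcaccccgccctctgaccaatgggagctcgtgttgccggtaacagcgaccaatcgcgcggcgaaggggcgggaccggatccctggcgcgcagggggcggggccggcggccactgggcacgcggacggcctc
Tef, chr15:81811164-81811413, plus strand, with an E-box: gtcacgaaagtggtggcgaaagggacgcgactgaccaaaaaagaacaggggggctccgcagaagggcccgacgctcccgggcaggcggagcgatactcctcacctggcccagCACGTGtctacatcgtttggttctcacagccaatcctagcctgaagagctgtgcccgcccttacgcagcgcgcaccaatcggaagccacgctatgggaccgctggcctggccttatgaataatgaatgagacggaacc
Bhlhe41, chr6:145865559-145865670, minus strand, with an E-box: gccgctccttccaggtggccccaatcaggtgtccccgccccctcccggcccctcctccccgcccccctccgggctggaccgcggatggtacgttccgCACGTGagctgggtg
Per1, chr11:69098699-69098947, plus strand, with an E-box: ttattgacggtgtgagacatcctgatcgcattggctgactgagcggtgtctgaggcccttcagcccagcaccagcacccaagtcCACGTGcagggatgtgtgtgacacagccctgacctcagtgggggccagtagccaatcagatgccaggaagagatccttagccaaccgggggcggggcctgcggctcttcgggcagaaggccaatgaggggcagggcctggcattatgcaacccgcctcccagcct
Hlf, chr11:90390918-90391167, minus strand, with a CRE, which 1.55% of windows hold: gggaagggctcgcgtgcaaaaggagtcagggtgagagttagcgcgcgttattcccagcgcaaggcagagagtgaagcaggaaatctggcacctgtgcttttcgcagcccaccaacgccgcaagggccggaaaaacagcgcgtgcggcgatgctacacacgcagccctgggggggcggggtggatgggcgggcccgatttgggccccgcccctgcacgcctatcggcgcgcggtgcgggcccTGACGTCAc
A match is a description of letters in this window. No match to the marked motifs in the windows of Usp2, Clock, Arntl, Nr1d2 and Cry2 says only that their letters are not there.

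The 6 libraries were of even quality. FPKM summed to between 540095 and 569502 per library, and between 15942 and 16188 symbols were above 0. Log2 values correlated across genes at 0.993 to 0.995 between replicates within each time point, and at 0.988 to 0.992 between time points. Counts were not part of these tables. From the steps between low values, 1 fragment on a 1-kb transcript was worth 0.013 to 0.0153 FPKM, a 1.18-fold range, so the depth of the 6 IH libraries was similar. Hepatocyte markers summed to between 57092 and 63549 FPKM in every IH library, and none of the 7 measured was called by limma (1 had an unadjusted P under 0.05). None of the markers tested of Kupffer cells (10), sinusoidal endothelium (8), cholangiocytes (5), lymphocytes (5), neutrophils (3), red cells (2) or pancreas (2) was called by limma. Unadjusted, 5 of these 35 had a limma P under 0.05, as did 3215 of all 13215 genes. Of the 5, 3 were endothelial (Cdh5, Oit3 and Lyve1), all lower at ZT8 without overlap (-0.27, -0.25 and -0.24). The cholangiocyte marker Krt19 was also lower, and the red cell marker Alas2 was higher. Of the 7 pancreas markers, 4 were listed at 0 in all 6 libraries. Of the 9 stellate cell and fibroblast markers, Col1a1 was called lower (fell by 0.25 on the log2 scale), and 5 had an unadjusted P under 0.05. None was called with any 1 library left out, with common-sum or quantile scaling, or with a replicate block. Their sum ran from 72.7 to 88.3 FPKM at ZT4 and from 63.6 to 69.9 FPKM at ZT8. It was thus lower at ZT8 without overlap, as were 17.1% of all genes. Most of it was Dcn, which was not called (means of 60.1 and 50.3 FPKM). In bulk liver, fewer cells of a type and less RNA per cell cannot be told apart. The part of stellate or endothelial cells in the other results was not tested.

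One library stood apart in the clock genes. In IH ZT4 replicate 1, Dbp was at 8.78 FPKM against 30.5 and 37.1 FPKM in the other replicates, Ciart at 0.331 against 1.26 and 2.03 FPKM, and Arntl at 6.75 against 2.78 and 2.08 FPKM. In each of these genes it was the IH ZT4 library nearest to the control ZT4 libraries, as the plot of clock genes by library shows. The clock counts and several clock genes are therefore given with and without it. Ciart, Per2, Per3, Clock, Nr1d2, Nfil3, Tef and Usp2, given with all libraries, were also called without it.

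From ZT4 to ZT8 in IH, 432 genes rose and 489 fell, which makes 921 genes or 6.97% of those tested (3.27% higher and 3.70% lower). The median difference over all genes was -0.02. The steps were mostly modest in size. The median size of the difference among called genes was 0.41 on the log2 scale, the smallest was 0.17, and 72 genes differed by at least 1, of which 32 rose and 40 fell. The values of the ZT4 and ZT8 libraries did not overlap in 30.2% of all genes (13.1% with ZT8 higher and 17.1% with ZT8 lower). Leaving out IH ZT4 replicate 1 left 162 higher and 196 lower.

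Many called genes sat at an extreme of their day at ZT8 or ZT12. Over the 6 IH time points, the highest mean fell at ZT8 in 267 of the 432 genes that rose and at ZT12 in 123. The genes that fell had their lowest mean at ZT8 in 251 of 489 cases and at ZT12 in 208. Among all 13215 genes the highest mean was at ZT8 in 2829 and at ZT12 in 2013, and the lowest at ZT8 in 2468 and at ZT12 in 3455. Since ZT4 and ZT8 entered both the calls and these extremes, the times describe the genes and test nothing.

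**Figure D1:**
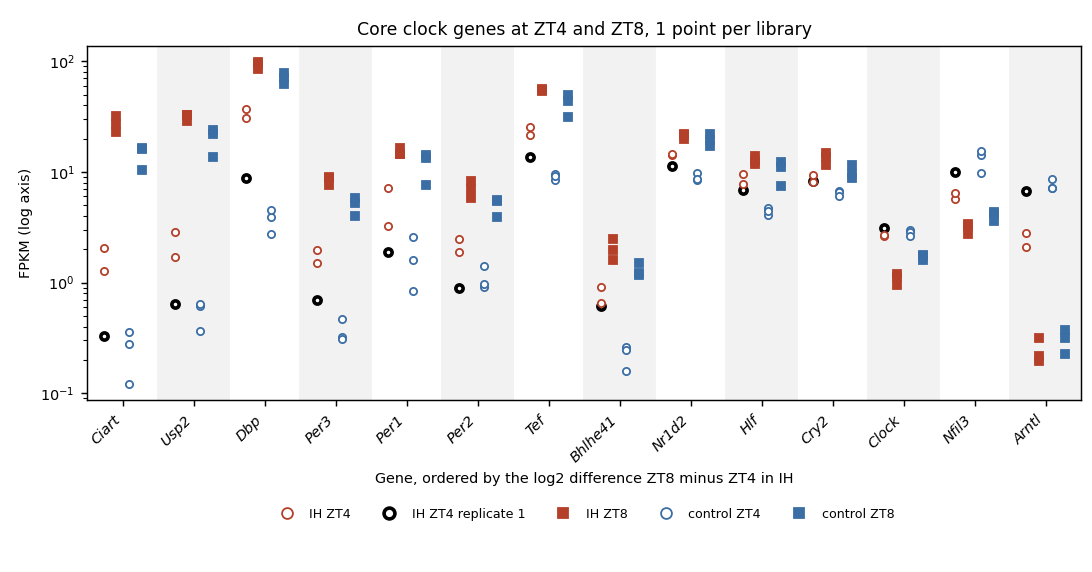
FPKM of called core clock genes and Dbp in each library at ZT4 and ZT8 (log axis), for IH and control, ordered by the IH difference. Ciart spans 0.331 to 2.03 FPKM at IH ZT4 and 22.9 to 32.2 FPKM at IH ZT8, and IH ZT4 replicate 1 (black ring) lies nearest to the control ZT4 libraries in Dbp, Ciart and Arntl.

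Core clock genes had the largest share called. Of 25 tested, 11 rose and 3 fell, against 6.97% of all genes called, with a median difference of 0.12 against -0.02 over all genes. Without IH ZT4 replicate 1, 8 were called higher and 3 lower. Other libraries mattered more, with 7 and 1 called without IH ZT8 replicate 1, 5 and 1 without IH ZT8 replicate 2 and 9 and 1 without IH ZT8 replicate 3, and without the filter on low values 4 and 1 were called. In control liver, where 5.38% of all genes were called (2.62% higher and 2.76% lower), 11 were called higher and 4 lower.

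Most genes of the negative arm of the loop were called higher. Ciart, which encodes a repressor of CLOCK and BMAL1 and carries the 3 E-boxes shown above, was at 0.331, 1.26 and 2.03 FPKM at ZT4 and at 32.2, 27.3 and 22.9 FPKM at ZT8. The groups were far apart, and the difference was 3.76 ± 0.29 (SE, n = 3 per group, adjusted P = 0.00293), against 3.60 in control. Per3 was at 0.691, 1.51 and 1.98 FPKM and then at 8.82, 9.01 and 7.64 FPKM, a difference of 2.02 ± 0.20 (adjusted P = 0.00496), against 2.12 in control. Per1 went from 1.88, 3.26 and 7.19 FPKM to 14.4, 16.6 and 14.5 FPKM, a difference of 1.80 ± 0.35 (adjusted P = 0.0326), against 2.25 in control. Its ZT4 values were the widest of the Per genes, and its call was lost without IH ZT4 replicate 1 (1.45, adjusted P = 0.0595). Per2 went from 0.884, 1.90 and 2.45 FPKM to 5.79, 7.03 and 8.36 FPKM, a difference of 1.59 ± 0.23 (adjusted P = 0.0144), against 1.51 in control. Cry2 rose by 0.58, from between 8.10 and 9.41 FPKM to between 11.6 and 14.7 FPKM (adjusted P = 0.0202), and without IH ZT4 replicate 1 its difference of 0.55 was not called (adjusted P = 0.0762). Cry1, the other cryptochrome, was at 2.07 to 2.80 FPKM at ZT4 and 2.28 to 2.94 FPKM at ZT8, so that its groups overlapped (0.10, adjusted P = 0.595).

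Of the activators, Arntl and Clock fell. Arntl was at 6.75, 2.78 and 2.08 FPKM at ZT4 and at 0.216, 0.314 and 0.197 FPKM at ZT8. All ZT8 libraries were below all ZT4 libraries, and Arntl fell by 1.85 on the log2 scale (SE 0.32, adjusted P = 0.0226), or by 1.46 without IH ZT4 replicate 1 (adjusted P = 0.00546). In control its difference was -2.73. Clock was at 3.09, 2.65 and 2.68 FPKM and then at 0.945, 1.18 and 1.12 FPKM, and fell by 0.87 (SE 0.07, adjusted P = 0.00332), against a difference of -0.51 in control. Npas2, a paralog of Clock, was at 1.34, 0.393 and 0.209 FPKM at ZT4 and no higher than 0.0459 FPKM at ZT8, with a difference of -0.62 that was not called (adjusted P = 0.156). Outside this arm, Nfil3, a repressor at D-boxes, fell by 1.00 (SE 0.18, adjusted P = 0.0263), from 5.72 to 9.97 FPKM at ZT4 to 2.76 to 3.38 FPKM at ZT8.

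The factors of the stabilizing loop and the outputs were uneven. Nr1d2 rose by 0.63 (SE 0.09, adjusted P = 0.0151), from 11.4 to 14.5 FPKM at ZT4 to 19.9 to 21.9 FPKM at ZT8. Nr1d1 was at 55.0, 54.6 and 55.6 FPKM at ZT4 and at 58.0, 64.5 and 50.6 FPKM at ZT8, and was not called (0.06, adjusted P = 0.722). Its ZT8 libraries lie on both sides of the ZT4 ones.

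Of the PAR bZIP genes, Tef was at 13.5, 21.4 and 25.2 FPKM and then at 53.8, 55.1 and 56.4 FPKM, a rise of 1.46 ± 0.20 (adjusted P = 0.0124). Hlf rose by 0.61 ± 0.12 (adjusted P = 0.0343) from between 6.84 and 9.62 FPKM to between 11.7 and 14.0 FPKM, a call lost without IH ZT4 replicate 1 (0.52, adjusted P = 0.088). Dbp went from 8.78, 30.5 and 37.1 FPKM to 98.7, 95.4 and 84.4 FPKM. Its groups do not overlap, but with the wide ZT4 values the difference of 2.04 ± 0.48 was not called (adjusted P = 0.0535), while without replicate 1 the difference of 1.43 was (adjusted P = 0.00577). Bhlhe41, encoding the repressor DEC2, rose by 0.80 ± 0.12 (adjusted P = 0.0149) from at most 0.916 FPKM to at least 1.61 FPKM, and was not called without replicate 1 (0.75, adjusted P = 0.0578). Its relative Bhlhe40 was at 45.7 to 69.8 FPKM at ZT4 and 56.0 to 72.4 FPKM at ZT8, with overlap (0.10, adjusted P = 0.770). The casein kinases Csnk1d and Csnk1e, the F-box gene Fbxl21, Rora and Timeless had differences between -0.02 and 0.12, and none was called.

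**Figure D2:**
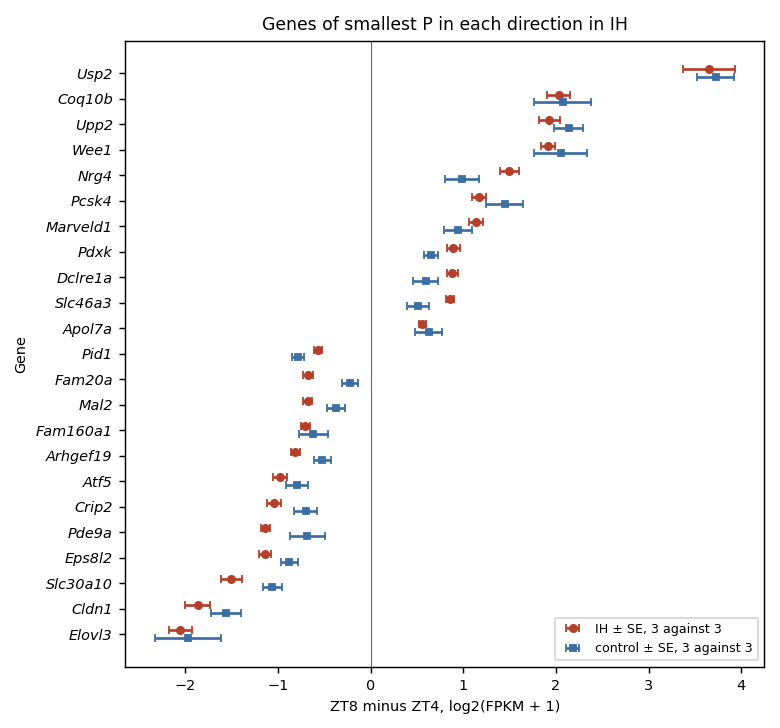
Log2 difference ZT8 minus ZT4 with SE for the genes of smallest P in each direction in IH (circles), beside the same difference in control (squares). Usp2 has the largest difference of those plotted (3.65 in IH and 3.73 in control), and every gene plotted lies on the same side of 0 in both conditions.

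The 12 genes that rose with the smallest P included Usp2, encoding a deubiquitinase with a clock-driven rhythm. It was at 0.639, 1.70 and 2.86 FPKM at ZT4 and at 32.8, 32.7 and 28.9 FPKM at ZT8, a rise of 3.65 ± 0.28 (adjusted P = 0.00293). Wee1, the kinase that restrains entry into mitosis, had the smallest P of all genes. It was at 1.18, 1.41 and 1.63 FPKM and then at 8.13, 8.19 and 7.84 FPKM, a rise of 1.91 ± 0.08 (adjusted P = 0.00105). Upp2, a uridine phosphorylase that begins uridine breakdown, went from 75.3, 85.2 and 103 FPKM to 345, 328 and 333 FPKM, a rise of 1.93 ± 0.11 (adjusted P = 0.00184). Coq10b, which is needed for coenzyme Q function in mitochondria, went from 7.24, 8.88 and 10.8 FPKM to 37.3, 41.8 and 38.9 FPKM, a rise of 2.03 ± 0.13 (adjusted P = 0.00201). In each of these the ZT8 libraries lay close together and well above every ZT4 library. Nrg4, encoding a neuregulin that ligates ERBB4, rose by 1.50 ± 0.10 from between 1.40 and 1.88 FPKM to between 5.88 and 7.36 FPKM (adjusted P = 0.00232). Pdxk, the pyridoxal kinase that makes active vitamin B6, rose by 0.89 ± 0.07 (adjusted P = 0.00293) from between 7.62 and 7.85 FPKM to between 13.7 and 16.4 FPKM. Pcsk4, Marveld1, Slc46a3, Dclre1a and Apol7a rose by between 0.56 and 1.17.

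The 12 genes that fell with the smallest P were led by Pde9a, a cyclic GMP phosphodiesterase. It was at 12.0, 11.3 and 11.6 FPKM at ZT4 and at 4.99, 4.60 and 4.63 FPKM at ZT8, and fell by 1.13 (SE 0.05, adjusted P = 0.00119). Elovl3, a fatty acid elongase, was at 126, 106 and 92.7 FPKM and then at 26.8, 26.7 and 22.1 FPKM, and fell by 2.05 (SE 0.12, adjusted P = 0.00201). Its IH mean was lowest at ZT12 (13.8 FPKM) and highest at ZT20 (315 FPKM). Cldn1, a tight junction claudin, went from 30.9, 24.5 and 23.5 FPKM to 7.41, 6.71 and 5.38 FPKM, and fell by 1.86 (SE 0.13, adjusted P = 0.00274). Slc30a10, which exports manganese, went from 11.2, 8.64 and 7.99 FPKM to 2.44, 2.82 and 2.52 FPKM, and fell by 1.50 (SE 0.12, adjusted P = 0.00293). The groups do not overlap in any of these genes. Atf5, a stress-related bZIP factor, fell by 0.98 (SE 0.08, adjusted P = 0.00293), from between 222 and 265 FPKM to between 116 and 129 FPKM. Eps8l2, Crip2, Arhgef19, Fam160a1, Mal2, Fam20a and Pid1 fell by between 0.57 and 1.14.

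**Figure D3:**
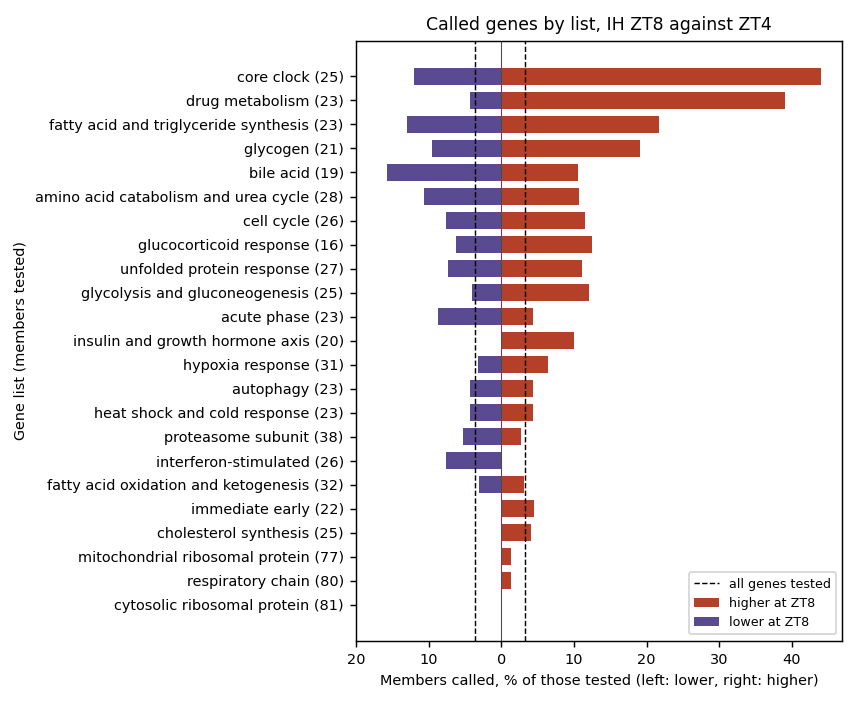
Share of the tested members of each gene list that was called higher (right) or lower (left) at IH ZT8, with the number tested in parentheses and the share over all genes as dashed lines. Core clock genes (11 and 3 of 25) and drug metabolism genes (9 and 1 of 23) have the largest shares, and the cytosolic ribosomal protein genes have no call.

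Called drug metabolism genes mostly rose. Of 23 tested, 9 rose and 1 fell, where 3.27% and 3.70% of all genes did, with a median of 0.29 against -0.02 over all genes. With any 1 of the 6 libraries left out, 5 or 6 were called higher, and the 1 lower call was kept only without IH ZT8 replicate 1. In control, 4 were called, all higher (median 0.42), where 2.62% of all genes were higher. Por, the reductase that passes electrons to the microsomal P450 enzymes, was at 86.6, 62.2 and 105 FPKM at ZT4 and at 213, 238 and 209 FPKM at ZT8, a rise of 1.40 ± 0.18 (adjusted P = 0.0102), against 1.62 in control. Alas1, the rate-limiting enzyme of haem synthesis, was at 18.0, 52.6 and 16.4 FPKM and then at 120, 125 and 84.4 FPKM, a rise of 2.07 ± 0.43 (adjusted P = 0.0397). Both genes were higher in every ZT8 library. Nr1i3 (CAR), a nuclear receptor for xenobiotics, rose by 0.56 ± 0.05 (adjusted P = 0.00402), from between 63.6 and 66.7 FPKM to between 90.5 and 99.9 FPKM. Cyp2b10, the classical target of CAR, fell by 0.85 (SE 0.17, adjusted P = 0.0370), from 7.30, 6.44 and 5.76 FPKM to 4.36, 2.38 and 2.91 FPKM. Cyp2a4 (2.01 ± 0.23, adjusted P = 0.00778) and Cyp2a5 (2.18 ± 0.28, adjusted P = 0.0103) rose together. They are near-identical copies, so that reads may be split between them and the 2 are not independent. Abcc2, which exports conjugates into bile, rose by 0.46 ± 0.04 (adjusted P = 0.00377), and Ugt1a1, Gstt2 and Cyp1a2 also rose.

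In the bile acid list, 2 of 19 genes rose and 3 fell (median -0.02), against 6.97% of all genes called, and in control 5 rose and 1 fell. With 1 library left out, at most 1 was called higher and at most 2 lower. Cyp7a1, the rate-limiting enzyme of bile acid synthesis, was at 13.5, 7.29 and 12.0 FPKM at ZT4 and at 26.9, 31.5 and 39.1 FPKM at ZT8, a rise of 1.52 ± 0.23 (adjusted P = 0.0151). Abcb11, the bile salt export pump, was at 114, 105 and 91.8 FPKM and then at 63.1, 63.2 and 50.2 FPKM, and fell by 0.81 (SE 0.11, adjusted P = 0.0134). The enzyme and the exporter thus moved in opposite directions, as they also did in control (1.83 and -0.43). Abcg5, part of a sterol exporter, rose by 0.42, and Nr5a2 and Fgfr4 fell by 0.23 and 0.27.

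The glycogen list held 4 genes that rose and 2 that fell of 21 tested (median 0.08), against 6.97% of all genes called, and 3 were called in control, all higher. With 1 library left out, 1 or 2 were called higher (1 without IH ZT4 replicate 1 or 2 or IH ZT8 replicate 2 or 3) and 0 to 2 lower, and the replicate block left 1 higher. Gys2, liver glycogen synthase, was at 49.1, 67.1 and 72.5 FPKM at ZT4 and at 145, 126 and 149 FPKM at ZT8, a rise of 1.15 ± 0.15 (adjusted P = 0.0104), against 1.49 in control. Pygl, liver glycogen phosphorylase, was at 176, 167 and 169 FPKM and then at 141, 149 and 132 FPKM, and fell by 0.28 (SE 0.06, adjusted P = 0.0365), against -0.06 in control. The synthase and the phosphorylase therefore moved in opposite directions, the phosphorylase by little. Ppp1r3b, which targets a phosphatase to glycogen, was at 56.1, 42.8 and 39.5 FPKM and then at 16.7, 23.6 and 22.0 FPKM, and fell by 1.11 (SE 0.17, adjusted P = 0.0151), with -0.03 in control. The difference between these steps was -1.08 and did not pass the test (adjusted P = 0.25). Stbd1, a glycogen-binding protein, rose by 0.80 ± 0.16 (adjusted P = 0.0367), and Ppp1r3e and Phkg2 rose by 0.29 and 0.21.

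Of 25 glycolysis and gluconeogenesis genes, 3 rose and 1 fell (median 0.01), against 6.97% of all genes called, and 5 were called in control, all higher. With 1 library left out, 0 to 2 were called higher and 0 or 1 lower. G6pc, the catalytic subunit of glucose-6-phosphatase, was at 459, 357 and 285 FPKM at ZT4 and at 84.2, 105 and 180 FPKM at ZT8, and fell by 1.61 (SE 0.29, adjusted P = 0.0276). In control it was at 79.5, 209 and 242 FPKM and then at 180, 150 and 156 FPKM, a difference of 0.02, and the difference between the steps of -1.63 did not pass the test (adjusted P = 0.30). Slc37a4, the transporter that feeds G6pc in the endoplasmic reticulum, rose by 0.50 ± 0.09 (adjusted P = 0.0257), as did Slc2a2 (GLUT2) by 0.41 ± 0.06 (adjusted P = 0.0165) and Foxo1 by 0.41 ± 0.09 (adjusted P = 0.042). Pck1 was at 734, 485 and 1011 FPKM and then at 1071, 1097 and 1291 FPKM, and was not called (0.69, adjusted P = 0.152). Fbp1 (0.22, adjusted P = 0.0638) and Ldha (-0.36, adjusted P = 0.0646) were not called either. Idh3a, Cox6a1 and Creb1 differed by 0.10, 0.03 and -0.03, all without a call.

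Fatty acid and triglyceride synthesis genes moved both ways, with 5 of 23 higher and 3 lower (median -0.03), against 3.27% and 3.70% of all genes, and in control 2 were higher and 3 lower. The higher calls fell to 1 without IH ZT4 replicate 1 or IH ZT8 replicate 2 and over all 36 libraries, and to 0 without IH ZT4 replicate 2, IH ZT8 replicate 1 or the filter on low values, while at least 3 lower calls were made in each of these settings. Insig2, which retains SREBP precursors in the endoplasmic reticulum, was at 85.6, 70.7 and 60.1 FPKM and then at 22.2, 20.7 and 17.3 FPKM, and fell by 1.79 (SE 0.14, adjusted P = 0.00293), against -1.49 in control. Srebf1 rose by 0.74 ± 0.15 (adjusted P = 0.0369), from between 55.6 and 57.6 FPKM to 108, 109 and 73.1 FPKM. The phosphatidate phosphatases Lpin2 (1.03 ± 0.16, adjusted P = 0.0157) and Lpin1 (1.59 ± 0.30, adjusted P = 0.0317) rose, as did Thrsp (1.46 ± 0.24, adjusted P = 0.0194) and Dgat2 (0.40 ± 0.07, adjusted P = 0.0235). Agpat2, an earlier acyltransferase of the triglyceride route, fell by 0.64 (SE 0.07, adjusted P = 0.00545). Fasn was at 74.4, 63.2 and 49.1 FPKM and then at 63.7, 102 and 47.2 FPKM, with overlap (0.14, adjusted P = 0.812). In the cholesterol synthesis list, 1 of 25 genes was called, higher at ZT8 (median -0.11), against 6.97% of all genes called. With 1 library left out, none was called except without IH ZT8 replicate 3, where 5 were higher. The replicate block gave 2 higher and 4 lower.

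In fatty acid oxidation and ketogenesis, 1 of 32 genes rose and 1 fell (median -0.01), against 6.97% of all genes called. Ppara, the receptor that drives this pathway, rose by 0.51 ± 0.10 (adjusted P = 0.0328) from 19.7, 21.4 and 26.1 FPKM to 32.5, 30.8 and 33.1 FPKM. Fgf21, a hepatokine and PPARα target, was at 2.84, 3.01 and 2.64 FPKM and then at 0.737, 0.530 and 1.04 FPKM, and fell by 1.12 (SE 0.11, adjusted P = 0.00436). In control Fgf21 overlapped between the times (0.46), and the difference between the steps was -1.58 (adjusted P = 0.21). Cpt2 was not called (-0.17, adjusted P = 0.192). With 1 library left out, the oxidation list had a higher call only without IH ZT4 replicate 3, and 1 or 2 lower calls each time. Over all 36 libraries none of its genes was called. Amino acid and urea cycle genes gave 3 higher and 3 lower of 28 (median 0.02), against 6.97% of all genes called. With 1 library left out, 0 to 3 were called higher and 1 or 2 lower. Asl rose by 0.46, Cbs and Kynu fell by 0.56 and 0.42, and Gpt and Nags changed by 0.30 and -0.19.

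Of 31 genes tested from the hypoxia list, 2 rose and 1 fell, a share near the 6.97% of all genes called. Their median difference was -0.002. Unadjusted, 13 of the 31 had a limma P under 0.05, as did 3215 of all 13215 genes. None was called without IH ZT4 replicate 1, IH ZT4 replicate 2 or IH ZT8 replicate 2. Bnip3, a mitophagy receptor, was at 101, 110 and 122 FPKM at ZT4 and at 166, 151 and 143 FPKM at ZT8, a rise of 0.47 ± 0.08 (adjusted P = 0.0271). Pfkfb3, which makes the allosteric activator of glycolysis, was at 1.26, 1.93 and 2.88 FPKM and then at 4.20, 7.76 and 8.72 FPKM, a rise of 1.37 ± 0.28 (adjusted P = 0.0393). Ndrg1 was at 10.1, 7.64 and 5.37 FPKM and then at 3.67, 2.97 and 3.15 FPKM, and fell by 0.99 (SE 0.19, adjusted P = 0.0326). In control the 3 genes differed in the same direction, by 0.81, 2.05 and -0.95. Vegfa was at 61.3, 56.9 and 54.4 FPKM and then at 69.2, 71.3 and 61.0 FPKM, and Adm at 0.643, 0.699 and 1.16 FPKM and then at 0.527, 0.446 and 0.731 FPKM. Neither was called (0.22, adjusted P = 0.132, and -0.22, adjusted P = 0.313), and Hif1a differed by -0.03 (adjusted P = 0.818). Since ZT4 lies within the daily exposure and ZT8 at its end, these values compare a later with an earlier hour of IH, not IH with normoxia.

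Unfolded protein response genes gave 3 higher and 2 lower of 27, against 6.97% of all genes called. Dnajb9, a chaperone of the endoplasmic reticulum, rose by 0.97 ± 0.16 (adjusted P = 0.0188) from 16.7, 19.9 and 22.0 FPKM to 37.9, 32.3 and 48.0 FPKM, against a difference of 0.65 in control. Eif2ak3 (PERK) rose by 0.40 ± 0.08 (adjusted P = 0.0392) and Ddit3 (CHOP) by 0.61 ± 0.13 (adjusted P = 0.0408), whereas Calr and Pdia4 fell by 0.41 and 0.29. All 3 that rose were lost without IH ZT4 replicate 1 or 2 or IH ZT8 replicate 1, and 1 was called higher without IH ZT8 replicate 2 or 3. The median of the list was 0.10 in IH and -0.52 in control, where 1 gene rose and 7 fell. Hspa5 (BiP), the main chaperone of this compartment, was at 116, 134 and 139 FPKM and then at 162, 147 and 212 FPKM in IH, but at 251, 439 and 220 FPKM and then at 136, 162 and 171 FPKM in control. Hyou1, its nucleotide exchange factor, had a difference of 0.60 in IH and -1.23 in control. The difference between the steps was 1.30 for Hspa5 (adjusted P = 0.20) and 1.83 for Hyou1 (adjusted P = 0.146). Unadjusted, 16 of the 27 genes had P under 0.05 for that difference, against 11.9% of all genes, and none passed the adjusted threshold.

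Of 23 heat shock and cold response genes, 1 rose and 1 fell, against 6.97% of all genes called. With 1 library left out, a higher call was made only without IH ZT4 replicate 2 or IH ZT8 replicate 2. Lower calls then numbered 1 or 2. None was called in the fits over the 18 IH libraries or all 36. Rbm3, a cold-induced RNA-binding protein, rose by 0.56 ± 0.09 (adjusted P = 0.0196), from 22.3, 27.8 and 25.0 FPKM to 39.5, 34.1 and 38.3 FPKM. Hspb1 was at 19.9, 20.1 and 17.4 FPKM and then at 11.2, 11.3 and 11.8 FPKM, and fell by 0.69 (SE 0.06, adjusted P = 0.00402). The stretch before its start is shown because it holds 2 heat shock elements. At least 1 such element was found in 6.69% of windows.
Hspb1, chr5:135887669-135887918, plus strand: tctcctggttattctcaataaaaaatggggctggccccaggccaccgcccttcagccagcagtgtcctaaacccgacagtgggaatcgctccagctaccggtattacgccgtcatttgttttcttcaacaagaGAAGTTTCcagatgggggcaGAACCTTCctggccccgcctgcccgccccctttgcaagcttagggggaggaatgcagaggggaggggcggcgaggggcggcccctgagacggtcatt

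The remaining lists had 1 to 5 calls each, to be read against the 6.97% of all genes called. Cell cycle genes gave 3 higher and 2 lower of 26. Ccne1 rose from at most 0.375 FPKM to at least 1.30 FPKM (0.94 ± 0.07, adjusted P = 0.00293), Ccnd1 rose by 0.51 and Mcm7 fell by 0.50. Cdkn1a, an inhibitor of cyclin-dependent kinases and a member of this list and of the glucocorticoid list, went from 3.70, 1.62 and 1.47 FPKM to 0.413, 0.359 and 0.384 FPKM, and fell by 1.17 (SE 0.23, adjusted P = 0.0364). Of 16 glucocorticoid response genes, 2 rose (Zbtb16 by 0.86, and Per1) and 1 fell. Of 20 genes of the insulin and growth hormone axis, 2 were called, both higher (Igfbp4 by 0.46, and Foxo1). Among 22 immediate early genes Maff rose (0.90 ± 0.18, adjusted P = 0.0375). Of 26 interferon-stimulated genes, Irf9 and Irgm1 fell, by 0.34 and 0.36. Of 23 acute phase genes, the receptor Il1r1 rose by 0.72 while Cp and Fgg fell by 0.27 and 0.46. Among 23 autophagy genes, Sqstm1 fell by 0.38 and Bnip3 rose. With any 1 library left out, the cell cycle list had 3 higher calls and 1 to 3 lower. The immediate early list then had a call only without IH ZT8 replicate 3. The insulin axis list had a call only without IH ZT4 replicate 3, and the interferon list only without IH ZT8 replicate 2. Acute phase genes then had lower calls only without IH ZT8 replicate 2, and 1 or 2 higher calls each time. The glucocorticoid list had no call without IH ZT4 replicate 2, IH ZT8 replicate 1 or IH ZT8 replicate 3. The autophagy list had none without IH ZT4 replicate 1, IH ZT4 replicate 2 or IH ZT8 replicate 1.

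The respiratory chain and ribosomal protein lists had few calls against the 6.97% of all genes called. Of 80 respiratory chain genes, Atp5sl was the 1 called (0.35). None of 81 cytosolic ribosomal protein genes was called by limma, with 2 at an unadjusted P under 0.05, and Mrpl49 was the 1 of 77 mitochondrial ribosomal protein genes called (0.23). Medians of these 3 lists were 0.07, 0.05 and 0.04. Of 38 proteasome subunits, 3 were called, near the share over all genes. Psmb10 rose by 0.40 and Psmd11 and Psmd14 fell by 0.45 and 0.26.

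**Figure D4:**
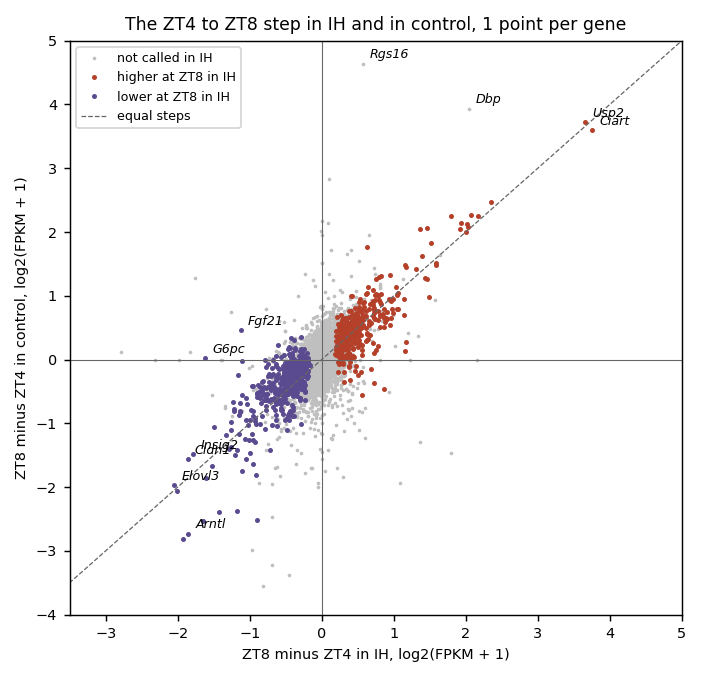
The difference ZT8 minus ZT4 in IH (x axis) and in control (y axis) on the log2(FPKM + 1) scale, 1 point per gene, with called genes in IH coloured. Most coloured points share their sign with the control (412 of 432 higher and 448 of 489 lower), and Rgs16 lies far above the line of equal steps.

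Control liver, from other mice, showed much of the same step. It had 346 genes higher and 365 lower. Of the 921 IH calls, 302 were called in the same direction in control, which is 32.8% of the IH calls and 42.5% of the 711 control calls, and none in the opposite direction. By sign alone, 412 of the 432 genes that rose in IH (95.4%) were above 0 in control, against 57.6% of all genes. Of the 489 that fell, 448 (91.6%) were below 0 in control, against 42.3% of all genes. The genes that rose had a median of 0.40 in IH and 0.43 in control, and those that fell a median of -0.42 and -0.31. Replicates were wider in control. The median SD of log2 values was 0.0748 and 0.0735 in the IH groups and 0.0953 and 0.0954 in the control groups.

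The difference between the steps was tested in 12 libraries, and 1 gene passed, 0.00757% of those tested, although 1573 had an unadjusted P under 0.05 (11.9%). That gene was Rgs16, a regulator of G protein signalling that is known in liver to respond to fasting. In IH it was at 86.8, 77.5 and 78.0 FPKM at ZT4 and at 155, 102 and 108 FPKM at ZT8. In control it was at 3.42, 1.02 and 1.58 FPKM and then at 50.2, 75.6 and 90.4 FPKM. All IH ZT4 libraries thus lay far above all control ZT4 libraries. At ZT8 all IH libraries also lay above all control libraries, but by less. The step was 0.57 in IH (not called, adjusted P = 0.0796) and 4.64 in control, and the difference between them was -4.07 (adjusted P = 0.00722).

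The next genes by this test did not pass it. Tacc2 had a step of -0.19 in IH and -0.88 in control (difference 0.69, adjusted P = 0.055), Stat3 had a difference between the steps of 0.91 (adjusted P = 0.11) and Hsp90aa1 a step of -0.28 and -1.46 (difference 1.18, adjusted P = 0.11). Stat3 was at 17.7 to 18.9 FPKM at ZT4 and at 16.8 to 17.9 FPKM at ZT8 in IH, but at 36.0 to 46.3 FPKM at ZT4 and 17.8 to 23.8 FPKM at ZT8 in control. Tram1 and Tspyl4 had differences of 0.50 and 0.38. In the other direction, Nr1h4, the bile acid receptor FXR, had a step of 0.09 in IH and 0.97 in control (difference -0.88, adjusted P = 0.11). It was at 61.5 to 71.8 FPKM at IH ZT4 and 34.7 to 38.4 FPKM at control ZT4, and both conditions were above 60 FPKM at ZT8. Tmie, which fell in IH by 1.17, Ppfibp1, which fell by 0.42, and Dbf4 had differences between the steps of -0.92, -0.77 and -0.44. None of these is shown to differ between conditions.

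**Figure D5:**
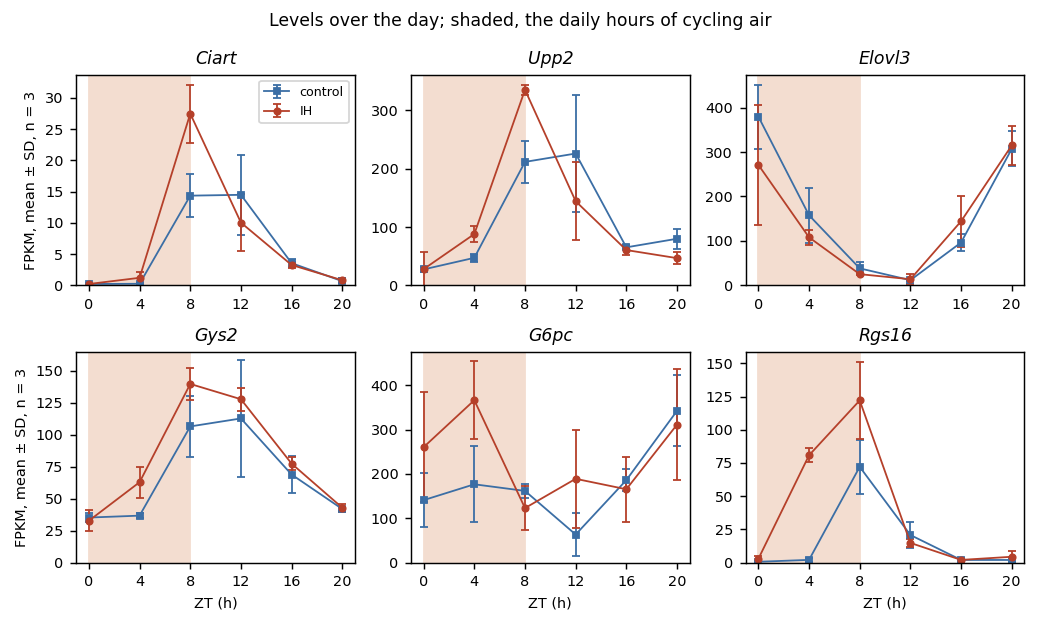
Mean FPKM with SD (3 libraries) at 6 times of day for 6 genes in IH (circles) and control (squares), with the hours of cycling air shaded. Rgs16 is at 80.7 FPKM at ZT4 in IH, while G6pc falls from 367 to 123 FPKM between ZT4 and ZT8 in IH.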

How the data were processed

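Per the labels, polyadenylated liver RNA of individual mice was prepared with a stranded Illumina kit and sequenced in read pairs. Per the submitters' notes and the study's methods, the authors aligned reads to mm10 with TopHat2 2.1.1 and deposited FPKM values made by Cufflinks 2.2.1 separately for each replicate. The annotation was not given in the sources used here. The FPKM values carry a per-library scaling and no counts, so the precision of low genes was not known beyond the steps between low values, which assume fragments of 200 bases.

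Both tables use the same column names, so the name of a table gave its condition. Each table held 24883 rows. The 280 symbols on more than 1 row were left out. Values were analysed as log2(FPKM + 1) with limma 3.58.1 (R 4.3.3), moderated with an intensity trend, for the 13215 genes that averaged 0.1 FPKM or more across 36 libraries. The fits were IH ZT8 against ZT4, the same in control, and the difference of the steps over 12 libraries. P values were adjusted over all genes tested, two-sided. The labels give separate samples, and P values measure the spread between them. The scripts were tested on simulated data. Named genes were the 12 of smallest P in each direction, the 5 of smallest P in each direction for the difference of the steps, the core clock genes, the 4 of smallest P in each other list, and genes central to the study. Other called list members were also named after their values were seen, as were Vegfa, Adm, Hif1a, Hspa5 and Hyou1. The members and lists were chosen with earlier results of these data known. Alternatives covered the pseudocount, low-value filter, scaling, trend, samples in the fit, repeated symbols, threshold, a replicate block and leaving out each library. A few genes chosen by these rules are not reported here. Sequences came from RefSeq, GRCm38.p6.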

Additional observations from a re-analysis of the deposited data

Results flagged for a closer look

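Rgs16 stood out because its step from ZT4 to ZT8 differed between IH and control by a test of that difference. The step was 0.57 in IH and 4.64 in control on the log2(FPKM + 1) scale, a difference of -4.07 (limma, adjusted P = 0.00722), with IH ZT4 libraries at 77.5 to 86.8 FPKM and control ZT4 libraries at 1.02 to 3.42 FPKM. Groups of 3 are too small for the test of single outlying libraries used elsewhere, so none was made.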

How the results depend on the processing

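No called gene named above changed direction under any alternative. Against 432 higher and 489 lower in IH, counts moved by over 1.5 times without the low-value filter (227 and 234), in a fit over the 18 IH libraries (208 and 293) or all 36 (104 and 184), and at a nominal P of 0.01 (696 and 832). The replicate block moved the higher count that far (268), but not the lower (365). Median-of-ratios scaling gave 537 and 417. Leaving out 1 library gave 144 to 313 higher and 162 to 410 lower. IH ZT4 replicate 1 (162 and 196) and replicate 2 (144 and 165), and IH ZT8 replicate 1 (145 and 162), replicate 2 (157 and 200) and replicate 3 (281 and 242) each moved a count that far, with fewer samples in the fit. The control counts (346 and 365) ran from 25 to 1009 and from 46 to 494 with 1 library out, the 1009 without control ZT8 replicate 1, and each of the 6 control libraries moved the higher count by over 1.5 times.

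The difference of the steps, 1 gene, gave 5 without the filter, 2 at a mean of at least 1 FPKM, with median-of-ratios or quantile scaling, with the replicate block or without the trend, 449 at a nominal P of 0.01, and 1 to 75 with 1 library out. The 75 came without control ZT8 replicate 1, 38 without control ZT4 replicate 2, 7 without IH ZT4 replicate 1 and 2 without IH ZT8 replicate 3. Rgs16 passed in every one, with an adjusted P of 0.00115 to 0.0489. The cause of these changes was not tested. The core clock counts (11 higher and 3 lower) and drug metabolism counts (9 and 1) were as above under the 3 scalings. Without the filter they were 4 and 1, and 5 and 0. Over the 18 IH libraries they were 11 and 3, and 5 and 0, and over all 36 they were 9 and 3, and 3 and 0.

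Deviations from the group mean in samples of the same number correlated at 0.066, 0.14 and 0.17 in IH. Samples of other numbers had a mean correlation of -0.063. In control the same numbers gave -0.0019, 0.23 and -0.024, and the others a mean of -0.034. These values were not tested. The labels give separate samples, so the numbers were not read as pairs. With the replicate block, IH gave 268 and 365 and control 109 and 142. Of the 92 named genes called, 75 kept their call under the block, 47 without the filter, 59 in the fit over the 18 IH libraries, 48 over all 36, 88 to 90 under the 3 scalings and 50 to 70 with 1 library out. Depth and counting error of single genes could not be had from FPKM, which limits genes of low level most.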
